A study of Mus musculus with 4 samples.

Results

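The genes described here encode the replisome, which is the machinery that copies DNA, together with the DNA polymerases and the enzymes that make and guard their nucleotides. The list holds 39 genes chosen by name, with earlier results of these data known, and all 39 were measured among 19938 genes. A gene counted as measured when the platform's annotation gave a probe set its symbol alone. Each gene was read from 1 probe set, the one with the highest average of the 4 arrays, and 36 of the listed genes had 1 probe set and 3 had 2. RNA was taken from whole lung of C57BL/6 mouse embryos at E18.5, from 2 samples labelled *Hmga2* KO (-/-) and 2 labelled wild type (WT, +/+), and each was hybridised to 1 Affymetrix array. The mutant line carries a germline allele of *Hmga2*, the gene of a chromatin protein, and the methods name no tissue-specific driver. Both WT titles bear the name WT1 and are told apart by the replicate number alone, so that they are separate samples rests on the words biological replicate, and the p values below measure the spread between the arrays.

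Copying DNA is a relay of protein complexes. The origin recognition complex marks the sites where copying may start, and the kinase of CDC7 and DBF4 lets them fire. CDC45 and the GINS complex then join the MCM ring to form the helicase that opens the strands. Polymerase alpha with primase lays down primers, and polymerases epsilon and delta extend them, held to the DNA by the PCNA clamp, which replication factor C loads. RPA covers the single strands, FEN1 and LIG1 join the pieces of the lagging strand, and ribonucleotide reductase with thymidylate synthase feeds the fork. Most of these genes are transcribed as a cell passes from G1 into S phase, under E2F factors, so their RNA is widely read as a sign of cycling cells. In a whole lung, more cycling cells and more RNA per cell cannot be told apart.

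The log2 values were made by the authors with RMA, and 1 unit is a doubling of signal. On all probe sets the pair of KO-labelled arrays had a Pearson r of 0.997 and the pair of WT arrays had 0.985. WT replicate 1 stood farthest from the KO-labelled arrays, at 0.976 and 0.976, and WT replicate 2 was at 0.994 and 0.992. The probe set of *Hmga2* itself read 9.65 and 9.39 on the KO-labelled arrays against 9.35 and 9.59 on the WT arrays, which differ by 0.051 (SE 0.16, adjusted p = 0.892), where SE is the standard error. The groups overlapped, and it could not be settled here whether the probe set lies within the missing part of the gene. The genotype labels are therefore unchecked, and every direction below follows the label. Each WT array is also taken apart below.

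All 39 genes had a higher mean in the KO-labelled arrays than in the WT arrays, and the shift ran through every step from origin firing to nucleotide supply. The median log2 difference was 0.72, a 1.65-fold higher signal, and the range ran from 0.25 for *Rpa3* to 1.34 for *Exo1* and *Prim1*. Over all 19938 genes the median was −0.051 and 41.2% had a higher mean in the KO-labelled arrays. Both KO-labelled arrays lay above both WT arrays for 37 of the 39 genes (17.6% of all genes), the exceptions being *Gins4* and *Rpa3*. A change of at least 1.2-fold upward was met by 38 (13.4% of all genes) and one of at least 2-fold by 10 (0.772% of all genes). By size of difference the genes ranked between 28 and 2890 among the 19938, and 27 of them stood within the first 500. By limma none had an adjusted p under 0.05 over all genes, a mark that 0.0802% of all genes passed as higher and 0.702% as lower. The smallest adjusted p was 0.0573 for *Pola1* and the largest was 0.510 for *Rpa3*. At an unadjusted p under 0.05, 37 were higher (5.88% of all genes) and 0 were lower (8.58% of all genes). The standard errors of the differences ran from 0.14 to 0.38 with a median of 0.21, against a median of 0.14 over all genes.

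**Figure D1:**
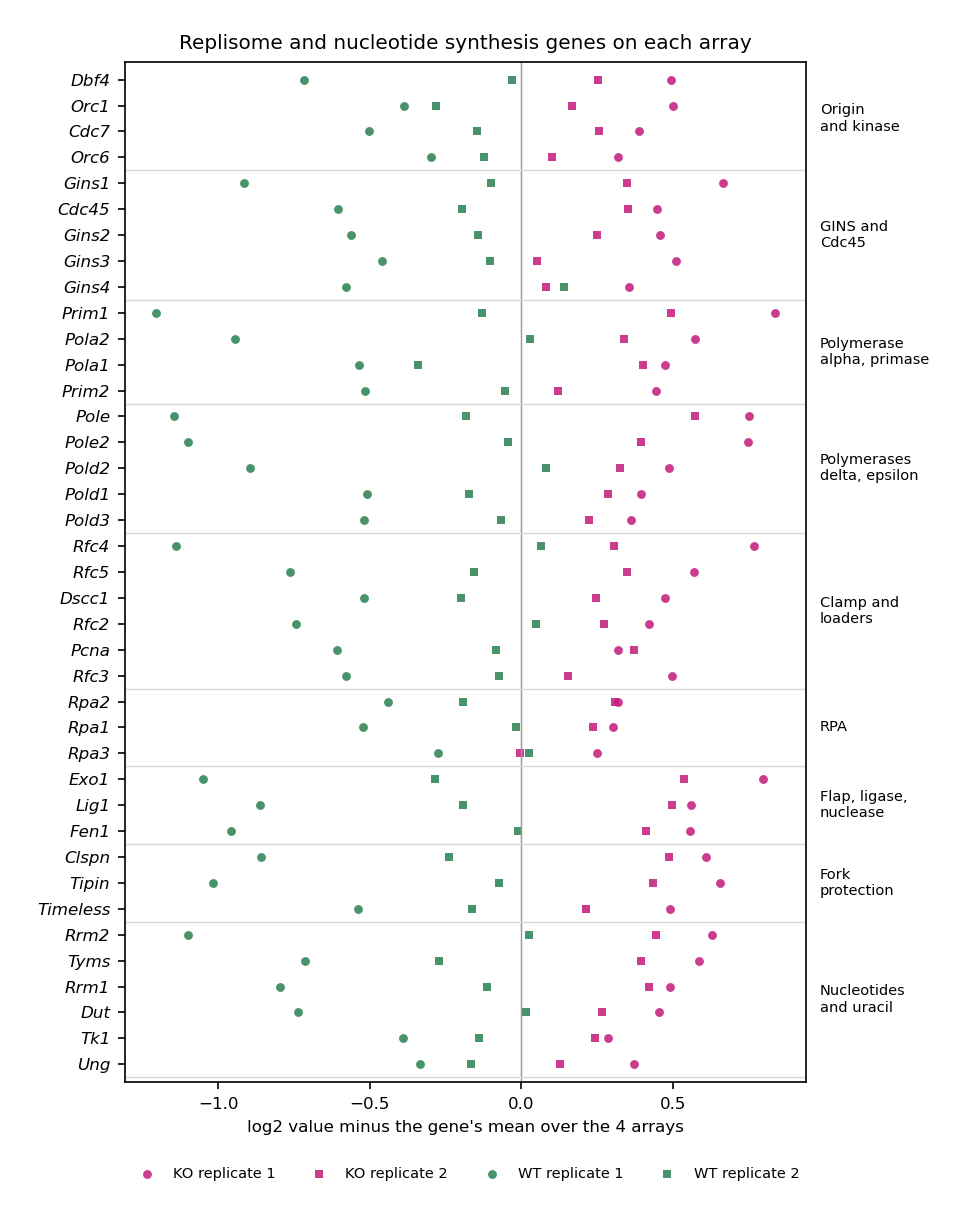
Each point is the log2 value of 1 gene on 1 array minus the mean of that gene over the 4 arrays, for the 39 genes grouped by role, with KO-labelled arrays in magenta and WT arrays in green. The points of the KO-labelled arrays lie to the right of both WT points for 37 genes (17.6% of all genes). WT replicate 1 lies farthest left for all 39.

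Promoters of 30 of the 39 genes were held in a RefSeq table of assembly GRCm38.p6, which gives 250 bases before and 50 bases after each start site. They were searched on both strands for TTTCCCGC, TTTGGCGC and TTTCGCGC, the core letters of an E2F site. Matches on opposite strands can share letters, and a promoter with several was counted once. At least 1 of them was found for 9 genes (30% of 30), namely *Pola1*, *Pold1*, *Pold3*, *Pole2*, *Rfc3*, *Gins3*, *Orc1*, *Lig1* and *Clspn*. The other 9 genes, which were not searched, are *Exo1*, *Tipin*, *Rfc2*, *Gins1*, *Pole*, *Gins4*, *Prim2*, *Dscc1* and *Gins2*. Among the 15614 genes of the array with a promoter in the table the share was 2.99%, and among all 27025 genes of the table it was 2.12%. A match is a string of letters and not a bound site. The genes with such letters had a median log2 difference of 0.68 and the 21 without had 0.75. Only exact letters in this window were searched, so a gene without them may still hold a site. Whether E2F sites relate to the size of the difference was not tested. A CCAAT box, searched as CCAAT on both strands, was found for 15 of the 30 (50%), where 41.7% of the genes of the array had one. A TATA box, searched as TATAAA on both strands, was found for 3 (10%), against 13.6%. The stretches below lie wholly before the start site and are shown because they place the letters for a primer-laying polymerase, an origin factor, a helicase subunit and a clamp loader, with the E2F letters in capitals. All are written 5′ to 3′ on the strand of the gene.
*Pola1* (chrX:93632246-93632325, minus strand): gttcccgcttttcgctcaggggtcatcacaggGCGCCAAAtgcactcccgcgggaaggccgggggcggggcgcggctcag
*Orc1* (chr4:108579364-108579453, plus strand): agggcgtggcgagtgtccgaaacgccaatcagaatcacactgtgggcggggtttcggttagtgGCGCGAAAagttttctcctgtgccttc
*Gins3* (chr8:95633469-95633558, plus strand): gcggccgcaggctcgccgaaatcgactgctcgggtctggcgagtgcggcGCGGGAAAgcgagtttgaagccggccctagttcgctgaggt
*Rfc3* (chr5:151651209-151651298, minus strand): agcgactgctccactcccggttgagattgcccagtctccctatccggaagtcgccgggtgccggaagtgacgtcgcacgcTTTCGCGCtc

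Both subunits of ribonucleotide reductase lack the E2F letters in this window and hold CCAAT boxes, which are in capitals in their stretches. These are shown because the enzyme sets the supply of DNA building blocks.
*Rrm1* (chr7:102441585-102441674, plus strand): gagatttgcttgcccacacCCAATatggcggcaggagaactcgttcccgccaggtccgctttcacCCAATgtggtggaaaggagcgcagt
*Rrm2* (chr12:24708144-24708233, plus strand): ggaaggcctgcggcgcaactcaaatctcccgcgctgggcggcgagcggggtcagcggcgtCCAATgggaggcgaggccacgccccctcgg

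Origin factors and the kinase that fires origins were higher in the KO-labelled arrays by a modest step. The median log2 difference of the 4 genes was 0.66, all had an unadjusted p under 0.05 (5.88% of all genes were higher at that mark), and none reached 2-fold (0.772% of all genes). *Orc1*, the ATPase subunit of the origin recognition complex, whose promoter stretch is shown above, had log2 values of 7.58 and 7.25 on the KO-labelled arrays against 6.70 and 6.80 on the WT arrays. Its difference was 0.67 (SE 0.16, adjusted p = 0.137), and it was close to the same against either WT array, at 0.72 for WT replicate 1 and 0.62 for WT replicate 2. *Cdc7*, the kinase, read 8.40 and 8.27 against 7.51 and 7.87 in the same order, a difference of 0.65 (SE 0.16, adjusted p = 0.155). *Dbf4*, the partner that switches the kinase on, had a difference of 0.75 (SE 0.24, adjusted p = 0.228), and *Orc6*, the smallest subunit of the complex, had 0.42 (SE 0.15, adjusted p = 0.269). Both KO-labelled arrays lay above both WT arrays for all 4 genes (17.6% of all genes).

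The helicase partners spread more widely. *Cdc45*, which binds the MCM ring, had log2 values of 9.49 and 9.40 on the KO-labelled arrays against 8.44 and 8.85 on the WT arrays, a difference of 0.80 (SE 0.17, adjusted p = 0.109). *Gins1*, a subunit of the GINS complex, had the largest difference of the group at 1.01 (SE 0.27, adjusted p = 0.173), which is 2.02-fold. *Gins2* read 9.72 and 9.51 on the KO-labelled arrays against 8.70 and 9.12 on the WT arrays, a difference of 0.71 (SE 0.18, adjusted p = 0.157). *Gins3*, another subunit, had 0.56 (SE 0.20, adjusted p = 0.290). The fourth subunit stood apart, as *Gins4* read 10.57 and 10.30 on the KO-labelled arrays against 9.63 and 10.35 on the WT arrays. Its KO replicate 2 lay below WT replicate 2, so the groups overlapped, and its difference of 0.44 (SE 0.25, adjusted p = 0.451) had a 95% interval of −0.16 to 1.03. Against WT replicate 1 alone the difference of *Gins4* was 0.80 and against WT replicate 2 alone it was 0.079. Subunits of 1 complex therefore had unequal differences on these arrays, although their intervals overlap.

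All 4 subunits of polymerase alpha and primase, which start every new strand, had a higher mean in the KO-labelled arrays (41.2% of all genes). Their median log2 difference was 0.89. *Pola1*, the catalytic subunit, had log2 values of 9.35 and 9.27 on the KO-labelled arrays against 8.33 and 8.53 on the WT arrays. Its difference of 0.88 (SE 0.14, adjusted p = 0.0573), with a 95% interval of 0.55 to 1.21, had the smallest p of the 39 genes. It also held against each WT array, at 0.97 and 0.78, and its WT arrays were 0.20 apart. *Prim1*, the catalytic subunit of primase, read 9.74 and 9.40 on the KO-labelled arrays against 7.69 and 8.77 on the WT arrays. That is a difference of 1.34 (SE 0.34, adjusted p = 0.157), 2.52-fold, and its WT arrays were 1.08 apart. *Pola2*, the regulatory subunit of the polymerase, had 0.91 (SE 0.31, adjusted p = 0.254), and *Prim2*, the large subunit of primase, had 0.57 (SE 0.20, adjusted p = 0.278). *Prim1* thus had a larger difference than *Pola1* and also a larger p, with SEs of 0.34 and 0.14.

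The polymerases that extend the strands were higher as well, with a median log2 difference of 0.81 over 5 subunits. *Pole*, the catalytic subunit of polymerase epsilon, which copies the leading strand, had log2 values of 10.31 and 10.13 on the KO-labelled arrays against 8.41 and 9.37 on the WT arrays. Its difference was 1.33 (SE 0.30, adjusted p = 0.124), 2.51-fold. *Pold1*, the catalytic subunit of polymerase delta, which copies the lagging strand, read 9.65 and 9.54 on the KO-labelled arrays against 8.75 and 9.08 on the WT arrays, a difference of 0.68 (SE 0.16, adjusted p = 0.130). Both KO-labelled arrays lay above both WT arrays for each of these catalytic subunits (17.6% of all genes). *Pole2*, the second subunit of polymerase epsilon, had 1.14 (SE 0.33, adjusted p = 0.202). The accessory subunits of polymerase delta, *Pold2* and *Pold3*, had 0.81 (SE 0.30, adjusted p = 0.302) and 0.59 (SE 0.18, adjusted p = 0.219). For *Pold2* most of the difference lay against WT replicate 1, at 1.30, with 0.33 against WT replicate 2.

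The sliding clamp and its loaders had a median log2 difference of 0.71 over 6 genes. *Pcna*, the clamp that tethers polymerases to DNA, had log2 values of 12.29 and 12.34 on the KO-labelled arrays against 11.36 and 11.89 on the WT arrays. Its difference was 0.69 (SE 0.19, adjusted p = 0.184), 1.62-fold, and it was the only one of the 39 genes with KO replicate 2 above KO replicate 1. A second probe set annotated to *Pcna* read 12.24 and 12.29 on the KO-labelled arrays against 11.28 and 11.80 on the WT arrays, a difference of 0.73 (SE 0.20, adjusted p = 0.322 over all probe sets), which is close to that of the first. RefSeq lists *Pcna* pseudogenes, and whether either probe set also reads them is not known here. *Rfc5*, a small subunit of replication factor C, read 11.59 and 11.37 on the KO-labelled arrays against 10.26 and 10.87 on the WT arrays, a difference of 0.92 (SE 0.22, adjusted p = 0.139). The other small subunits had 1.08 for *Rfc4*, 0.69 for *Rfc2* and 0.65 for *Rfc3*, with adjusted p values of 0.281, 0.299 and 0.237. *Rfc4* had the largest gap between the WT arrays of all 39 genes, 1.21, and the largest between the KO-labelled arrays, 0.46. *Dscc1*, which belongs to the alternative loader that acts in sister chromatid cohesion, read 6.83 and 6.60 on the KO-labelled arrays against 5.84 and 6.16 on the WT arrays, a difference of 0.72 (SE 0.17, adjusted p = 0.128).

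RPA, the trimer that covers single-stranded DNA, had the lowest differences of the 9 role groups, with a median of 0.54 over 3 subunits. *Rpa2*, the middle subunit, had log2 values of 9.24 and 9.23 on the KO-labelled arrays against 8.48 and 8.73 on the WT arrays, a difference of 0.63 (SE 0.14, adjusted p = 0.123). *Rpa1*, the large DNA-binding subunit, read 10.41 and 10.34 on the KO-labelled arrays against 9.58 and 10.08 on the WT arrays, a difference of 0.54 (SE 0.19, adjusted p = 0.273). *Rpa3*, the smallest subunit, read 9.86 and 9.61 on the KO-labelled arrays against 9.34 and 9.64 on the WT arrays. The groups overlapped there, since KO replicate 2 lay below WT replicate 2, and the difference of 0.25 (SE 0.17, adjusted p = 0.510) had a 95% interval of −0.15 to 0.65. A dimmer probe set annotated to *Rpa3* gave another picture, with 9.27 and 9.07 on the KO-labelled arrays against 8.47 and 8.85 on the WT arrays, groups that did not overlap and a difference of 0.51 (SE 0.18, adjusted p = 0.391 over all probe sets). The low value of *Rpa3* and the overlap of its groups thus rest on which of its probe sets is read. Whether the brighter one reads another locus is not known here.

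The flap nuclease, the replicative ligase and a further nuclease had a median log2 difference of 1.06 over 3 genes. *Exo1*, a nuclease of mismatch repair and of DNA end resection, had log2 values of 9.04 and 8.78 on the KO-labelled arrays against 7.19 and 7.96 on the WT arrays. Its difference of 1.34 (SE 0.26, adjusted p = 0.0873), 2.52-fold, was level with that of *Prim1* at the top of the 39 genes. Against WT replicate 1 it was 1.72, below *Prim1* at 1.87 and *Pole* at 1.81, and against WT replicate 2 it was 0.95. *Lig1*, the ligase that seals the joined pieces, read 10.24 and 10.18 on the KO-labelled arrays against 8.82 and 9.49 on the WT arrays, a difference of 1.06 (SE 0.22, adjusted p = 0.109). *Fen1*, which trims the flaps between them, had 0.97 (SE 0.29, adjusted p = 0.216). All of these were higher in both KO-labelled arrays than in both WT arrays (17.6% of all genes).

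Genes that hold the fork together had a median log2 difference of 1.09 over 3 genes. *Clspn*, the adaptor claspin that passes the checkpoint signal at a stalled fork, had log2 values of 8.31 and 8.19 on the KO-labelled arrays against 6.84 and 7.46 on the WT arrays. Its difference was 1.10 (SE 0.22, adjusted p = 0.0912), 2.14-fold. *Timeless*, which couples the helicase to the polymerases, read 8.68 and 8.40 on the KO-labelled arrays against 7.65 and 8.02 on the WT arrays, a difference of 0.70 (SE 0.18, adjusted p = 0.158). *Tipin*, the partner of TIMELESS in that complex, had 1.09 (SE 0.30, adjusted p = 0.177). These partners had unequal differences, and the 95% intervals of 0.37 to 1.81 for *Tipin* and 0.27 to 1.14 for *Timeless* overlap.

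Genes of nucleotide supply, 6 in number, all had a higher mean in the KO-labelled arrays (41.2% of all genes). Their median log2 difference was 0.82. *Rrm1*, the large subunit of ribonucleotide reductase, had log2 values of 11.95 and 11.88 on the KO-labelled arrays against 10.66 and 11.34 on the WT arrays, a difference of 0.91 (SE 0.23, adjusted p = 0.153). *Rrm2*, the small subunit made in S phase, read 11.41 and 11.22 on the KO-labelled arrays against 9.68 and 10.80 on the WT arrays, a difference of 1.07 (SE 0.34, adjusted p = 0.228). The WT arrays of *Rrm2* were 1.12 apart, more than its own difference, and against WT replicate 2 alone it was 0.51. *Tyms*, thymidylate synthase, which makes the thymine nucleotide, read 10.53 and 10.34 on the KO-labelled arrays against 9.23 and 9.67 on the WT arrays. Its difference was 0.99 (SE 0.18, adjusted p = 0.0825), 1.98-fold, with 1.21 against WT replicate 1 and 0.76 against WT replicate 2. *Tk1*, the cytosolic thymidine kinase of the salvage route, had 0.53 (SE 0.14, adjusted p = 0.170). A dimmer probe set of *Tk1* read 9.58 and 9.40 on the KO-labelled arrays against 8.31 and 9.05 on the WT arrays, a difference of 0.81 (SE 0.26, adjusted p = 0.372 over all probe sets). Whether the brighter probe set of *Tk1* reads another locus is not known here. The genes that keep uracil out of DNA had 0.72 (SE 0.25, adjusted p = 0.271) for *Dut*, the dUTPase, and 0.50 (SE 0.15, adjusted p = 0.207) for *Ung*, the uracil glycosylase.

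**Figure D2:**
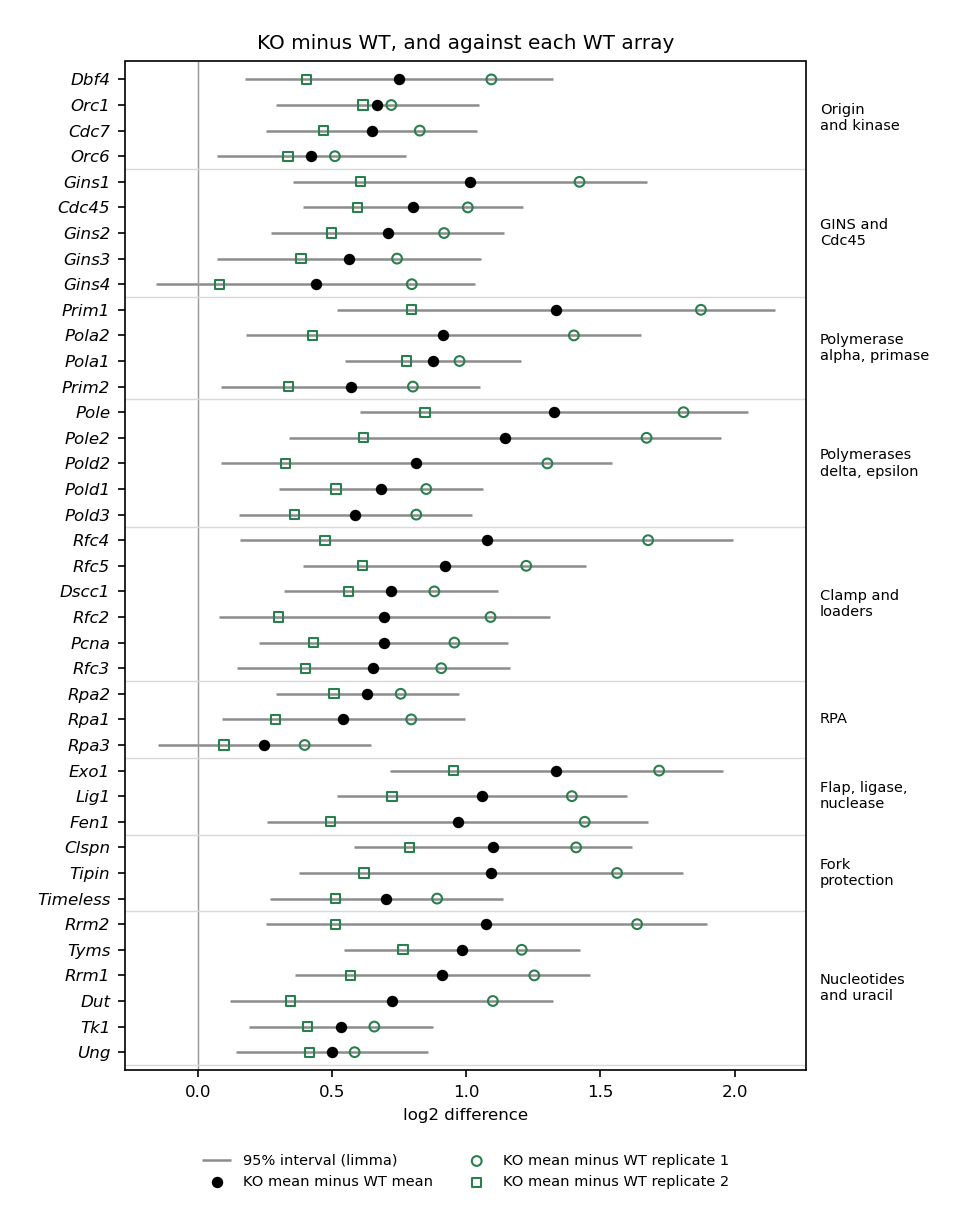
For each of the 39 genes the filled point is the log2 difference of the KO mean minus the WT mean with its 95% interval from limma, and the open symbols are the KO mean minus WT replicate 1 (circle) and minus WT replicate 2 (square). Intervals of *Gins4* and *Rpa3* reach below 0, and the circles lie to the right of the squares for all 39 genes.

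The size of the shift depended on which WT array was taken, while its direction did not. WT replicate 1 was lower than WT replicate 2 for all 39 genes, where WT replicate 2 was the higher in 58.3% of all genes. The median gap between the WT arrays was 0.53 for these genes and 0.059 for all genes. KO replicate 1 was the higher of the KO-labelled arrays for 38 of the 39 (78.3% of all genes), with a median gap of 0.21, where it was 0.10 for all genes. For 35 of the 39 the WT arrays lay farther apart than the KO-labelled arrays (67.2% of all genes), and the exceptions were *Gins3*, *Orc1*, *Orc6* and *Ung*. The mean of the KO-labelled arrays minus WT replicate 1 had a median of 1.01 and ran from 0.40 to 1.87. Minus WT replicate 2 it had a median of 0.50 and ran from 0.079 to 0.95, so it stayed above 0 for all 39 genes. For 21 of the 39 genes the gap between the WT arrays exceeded the difference from WT replicate 2. The order KO replicate 1, KO replicate 2, WT replicate 2, WT replicate 1 from high to low was found for 36 of the 39, and for 12.7% of all genes.

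Differences from pairs of arrays that share no sample were correlated across the 39 genes. Across the 39 genes, KO replicate 1 minus WT replicate 1 and KO replicate 2 minus WT replicate 2 had a Pearson r of 0.48, and with the WT arrays exchanged r was 0.64. These values are across genes of arrays normalized together and are given as a description. They do not measure how well a difference repeats, since the genes are not replicates.

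Calls by limma turned on single arrays. Without WT replicate 1, 23 of the 39 genes rose at an adjusted p under 0.05 (2.53% of all genes), and without WT replicate 2 all 39 did (16.7% of all genes). In both settings the lone WT array is assumed to vary like the KO-labelled arrays, which lay closer to each other. The SE was also the same, 0.15, for each of the 39 genes, so the spread of the single gene was not used. Such a call is thus a cut on the size of the difference from 1 WT array. Without KO replicate 1 none passed (0% of all genes), with 8 at an unadjusted p under 0.05 (1.23% of all genes). Without KO replicate 2 again none passed (0% of all genes), with 24 at an unadjusted p under 0.05 (2.49% of all genes). There the spread comes from the WT arrays alone.

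**Figure D3:**
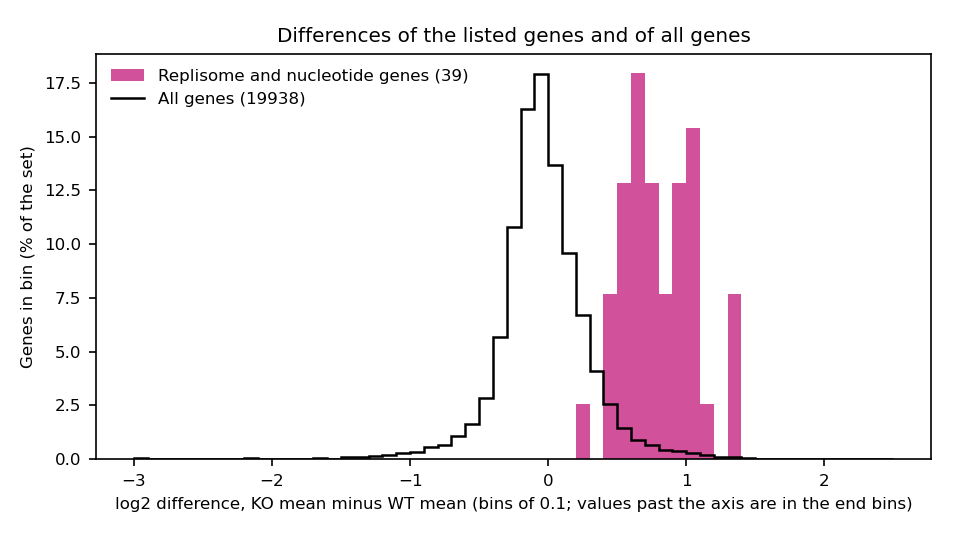
Share of genes in each bin of 0.1 of the log2 difference of the KO mean minus the WT mean, as a percentage of the 39 listed genes (filled) and of all 19938 genes (line). The listed genes span 0.25 to 1.34 with a median of 0.72, and all genes centre on −0.051.

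Other genes of the fork that are not in the list pointed in the same direction, though less evenly. Of 28 such genes 26 had a higher mean in the KO-labelled arrays, against 41.2% of all genes. Their median log2 difference was 0.58, with 0.85 against WT replicate 1 and 0.34 against WT replicate 2. By limma 0 passed over all genes, and at an unadjusted p under 0.05, 20 were higher and 0 lower where 5.88% and 8.58% of all genes were. *Ticrr*, which helps origins fire, had log2 values of 9.80 and 9.70 on the KO-labelled arrays against 8.04 and 8.82 on the WT arrays, a difference of 1.32 (SE 0.25, adjusted p = 0.0849). *Chaf1a*, a subunit of the histone chaperone that acts behind the fork, had 0.97 (SE 0.16, adjusted p = 0.0607), *Atad5*, which unloads the clamp, had 0.80 (SE 0.15, adjusted p = 0.0824), and *Chtf18*, of the same alternative loader as *Dscc1*, had 0.72 (SE 0.13, adjusted p = 0.0825). The lower means belonged to *Pold4*, the smallest subunit of polymerase delta, at −0.35 (SE 0.17, adjusted p = 0.401), and to *Orc4*, of the origin recognition complex, at −0.22 (SE 0.16, adjusted p = 0.548). *Pold4* thus pointed opposite to *Pold1*, *Pold2* and *Pold3*, and its KO-labelled arrays lay below both WT arrays. These genes were picked out once their values were known.

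Other steps of nucleotide synthesis were mostly higher too. Of 27 measured genes of 30 listed, 25 had a higher mean in the KO-labelled arrays (41.2% of all genes). Their median log2 difference was 0.37, with 0.68 against WT replicate 1 and 0.17 against WT replicate 2. By limma 0 passed over all genes, and an unadjusted p under 0.05 was reached by 12 that were higher (5.88% of all genes) and 1 that was lower (8.58% of all genes). *Cad*, the enzyme of the first steps of pyrimidine synthesis, had log2 values of 9.60 and 9.56 on the KO-labelled arrays against 8.91 and 8.97 on the WT arrays, a difference of 0.65 (SE 0.13, adjusted p = 0.0882). Its WT arrays were close, so that against each of them it was 0.68 and 0.62. *Dctd*, which makes deoxyuridine monophosphate for TYMS, had 1.30 (SE 0.31, adjusted p = 0.143), and *Umps*, of the last steps of pyrimidine synthesis, had 0.86 (SE 0.24, adjusted p = 0.184). *Impdh1*, an enzyme of guanine nucleotide synthesis, read 8.93 and 8.89 on the KO-labelled arrays against 9.43 and 9.54 on the WT arrays, a difference of −0.57 (SE 0.13, adjusted p = 0.121).

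DNA polymerases that work outside the replication fork had no common direction. Of 14 measured of 15 listed, which serve repair, the bypass of lesions and mitochondria, 7 had a higher mean in the KO-labelled arrays (41.2% of all genes), and the median log2 difference was −0.0022. By limma 0 passed, and an unadjusted p under 0.05 was reached by 1 that was higher and 0 that were lower, where the shares of all genes were 5.88% and 8.58%. That gene was *Polq*, the polymerase of an end joining route, which read 7.39 and 7.44 on the KO-labelled arrays against 7.08 and 6.98 on the WT arrays, a difference of 0.39 (SE 0.13, adjusted p = 0.243). *Polh*, a polymerase of lesion bypass, had 0.48 (SE 0.20, adjusted p = 0.356), *Poll*, of end joining, had 0.31 (SE 0.14, adjusted p = 0.379), and *Mad2l2*, a subunit of another bypass polymerase, had 0.41 (SE 0.20, adjusted p = 0.407). *Polb*, the main polymerase of base excision repair, had −0.096 (SE 0.13, adjusted p = 0.742) with a 95% interval of −0.42 to 0.22, and was added for its role after the values were seen.

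Copying of mitochondrial DNA and the nucleotide enzymes that work outside S phase, 11 genes of which *Polg* and *Polg2* also stand among the polymerases above, had a median log2 difference of −0.00054, with 5 of 11 higher in the KO-labelled arrays (41.2% of all genes). At an unadjusted p under 0.05, 0 were higher (5.88% of all genes) and 1 was lower (8.58% of all genes), and 0 passed over all genes. The lower one was *Samhd1*, which breaks down deoxynucleotides, with log2 values of 10.84 and 10.68 on the KO-labelled arrays against 11.43 and 11.22 on the WT arrays and a difference of −0.57 (SE 0.14, adjusted p = 0.155). *Tfam*, which packs mitochondrial DNA, had 0.52 (SE 0.22, adjusted p = 0.349), *Twnk*, its helicase, had 0.31 (SE 0.16, adjusted p = 0.413), and *Mgme1*, its exonuclease, had 0.26 (SE 0.17, adjusted p = 0.498). *Rrm2b*, the small subunit of ribonucleotide reductase used outside S phase, had −0.17 (SE 0.15, adjusted p = 0.617), where its S phase counterpart *Rrm2* had 1.07, and it was chosen as that counterpart after the values were seen. Subunits of RNA polymerase II, which copies DNA into RNA, gave a median of 0.22 over 12 genes, with 10 higher in the KO-labelled arrays (41.2% of all genes) and 0 of them at an unadjusted p under 0.05 (5.88% of all genes). Their medians were 0.44 against WT replicate 1 and 0.050 against WT replicate 2, where those of the 39 genes were 1.01 and 0.50. Its lowest p values belonged to *Polr2d*, *Polr2l*, *Polr2b* and *Polr2j*, with differences of 0.47, 0.49, 0.30 and 0.44 and adjusted p values of 0.360 to 0.462.

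**Figure D4:**
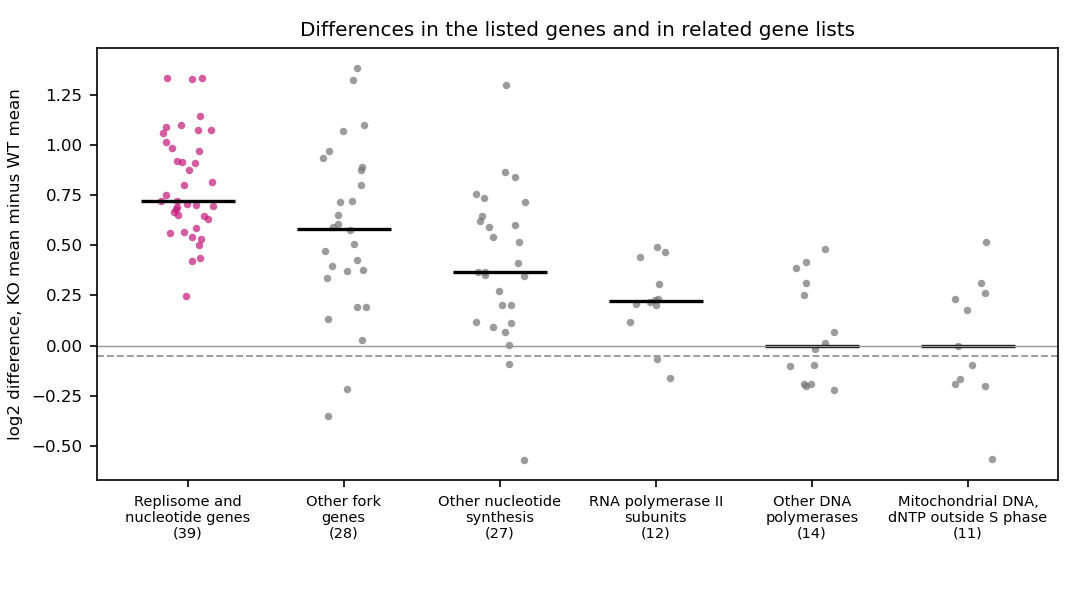
Each point is the log2 difference of 1 gene, KO mean minus WT mean, for the 39 listed genes (magenta) and for related lists (grey), the bar is the median of a list, and the dashed line is the median of all genes. The medians are 0.72 for the 39 genes, 0.58, 0.37 and 0.22 for other fork genes, other nucleotide synthesis and RNA polymerase II, and near 0 for the polymerases outside the fork and for mitochondrial DNA.

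Markers of the tissue and of other cells also differed between the groups. The values carry no detection call, and no marker was at 0. The genes *Nkx2-1* and *Sftpc* of lung epithelium had log2 values of at least 11.31 on every array, so the samples read as lung. The lowest value among the 11 epithelial markers was 8.59, for *Aqp5* on KO replicate 1. Among 11 epithelial markers 3 fell by limma over all genes (0.702% of all genes). They were *Scgb1a1* at −2.69 (SE 0.15, adjusted p = 0.00283), *Aqp5* at −2.20 (SE 0.13, adjusted p = 0.00339) and *Sftpa1* at −1.10 (SE 0.13, adjusted p = 0.0258). Of the 11, 7 lay lower in both KO-labelled arrays (31.8% of all genes). Another 2, *Epcam* at 0.69 (SE 0.19, adjusted p = 0.178) and *Nkx2-1* at 0.11 (SE 0.13, adjusted p = 0.700), lay higher in both (17.6% of all genes). The groups overlapped for *Cdh1* at 0.017 (SE 0.13, adjusted p = 0.962) and *Foxa2* at 0.19 (SE 0.16, adjusted p = 0.597). *Sftpc*, among the 7 that lay lower, had −0.096 (SE 0.13, adjusted p = 0.728). The signal of all 11, summed on the linear scale, was 45315 and 44567 on the KO-labelled arrays against 64329 and 65271 on the WT arrays. Such a sum weighs the brightest genes most and is not a measure of the amount of epithelium. Among 11 leukocyte markers 10 lay lower in both KO-labelled arrays (31.8% of all genes). By limma *Lyz2* at −1.76 (SE 0.14, adjusted p = 0.00803) fell (0.702% of all genes). The summed signal of the 11 was 6155 and 5657 on the KO-labelled arrays against 13253 and 12774 on the WT arrays. *Lyz2* weighs most in that sum, as the brightest of them, with log2 values of 11.40 and 11.32 against 13.23 and 13.01. The median log2 difference of the 11 was −0.43. Of 7 markers of cardiac muscle 6 lay higher in both KO-labelled arrays (17.6% of all genes). By limma *Nppa* at 1.78 (SE 0.17, adjusted p = 0.0172) rose (0.0802% of all genes). The seventh, *Ryr2*, lay lower in both at −0.89 (SE 0.36, adjusted p = 0.333). The 7 markers had a summed signal of 16536 and 14608 on the KO-labelled arrays against 10563 and 9343 on the WT arrays. Endothelial markers gave 19724 and 18980 on the KO-labelled arrays against 23423 and 24999 on the WT arrays, with 4 of 6 lower in both (31.8% of all genes). The 4 measured erythroid markers gave 2760 and 2651 on the KO-labelled arrays against 3896 and 3829 on the WT arrays, with 3 lower in both (31.8% of all genes). Mesenchymal markers gave 44089 and 43802 on the KO-labelled arrays against 40997 and 43638 on the WT arrays. Of these 9, 3 were higher in both (17.6% of all genes) and 1 was lower in both (31.8% of all genes). Thymus and liver markers had medians of −0.15 and −0.17. An unadjusted p under 0.05 was reached by 0 of them, where 5.88% of all genes were higher and 8.58% lower at that mark. The median gap between the WT arrays was 0.098 for the epithelial markers, 0.022 for the leukocyte markers and −0.14 for the cardiac markers, as WT replicate 2 minus WT replicate 1, where it was 0.53 for the 39 genes. The part of these cell types in the difference of the 39 genes was not tested.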

How the data were processed

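RNA of whole E18.5 mouse lung (2 samples labelled *Hmga2* KO, 2 labelled WT) was profiled on Affymetrix arrays, 1 array per sample. The deposited values are log2 expression per probe set, which the authors obtained by RMA in Affymetrix Expression Console, per the submitters' processing notes; its version is not stated in the sources used here. All columns of samples were used. Of 30177 probe sets, 21789 had 1 gene symbol, 1621 had several and 6767 were unnamed, and only those with 1 symbol were used, 1 per gene (the highest mean over 4 arrays), giving 19938 genes. RMA brings the arrays to a similar distribution, so values are relative within this set, and no probe set was removed as dim.

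Differences (KO minus WT) were fitted with lmFit and eBayes of limma (version 3.58.1, under R 4.3.3; residual df 2, median prior df 4.42) with Benjamini-Hochberg adjustment over all 19938 genes and a threshold of 0.05. The 1.2-fold limit is the one of the study's array analysis. An exact permutation test of 2 against 2 arrays cannot go below p = 0.333 and was not used. The number of arrays limits the precision. The fit was run on simulated data with known changes, to check that the mean estimated differences came out near them. The simulated arrays had independent noise and none stood apart, so this does not bear on the calls. Alternatives were array centring, cyclic loess, a filter on dim genes, the mean of all probe sets, a trended robust fit, a test against the fold limit, another threshold, a replicate block and leaving out each array.

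The 39 genes and the other lists were chosen with earlier results of these data known, so their counts and medians are descriptions and no set test was run. Array values are printed for the 2 genes with the smallest p in each role group, for *Pcna*, *Rrm1*, *Rrm2*, *Tyms*, *Pold1* and *Pole*, and for listed genes whose groups overlap, and every listed gene may be named. Of the other pathway lists up to 4 genes with the smallest p are named, and further ones are marked as chosen later. Promoters came from RefSeq (GRCm38.p6) by symbol. A search for a PCNA-binding motif in protein sequences was planned and was not run, as protein sequences were not used here. The plots were made in matplotlib 3.10.9.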

Additional observations from a re-analysis of the deposited data

How the results depend on the processing

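All 388 values of single genes under the alternatives kept their sign, but many of them could not differ from the main value. The replicate block, the filter on dim genes and the trended robust fit leave the estimated difference as it was. So does the mean of all probe sets for genes with 1 probe set, and centring moves every gene by the same 0.040. The number of the 39 genes called higher, 0 in the report, stayed at 0 with the mean of all probe sets, a trended robust fit and a test against 1.2-fold. It was 1 (*Pola1*; 0.135% of all genes) after centring each array on its median, 2 (*Pola1* and *Tyms*; 0.351%) after cyclic loess, and 4 (0.537%) at an adjusted p under 0.10. It was 4 of 37 (*Clspn*, *Exo1*, *Pola1* and *Tyms*; 0.619% of the genes tested) without the dimmest 40% of genes, where *Dscc1* and *Orc1* drop out and fewer genes are tested. Over the fits without 1 array it ran from 0 to 39, with 23 (2.53%) without WT replicate 1, 39 (16.7%) without WT replicate 2 and 0 without either array labelled KO. The median difference was 0.72 and ran from 0.50 (without WT replicate 1) to 1.01 (without WT replicate 2) over these fits, and from 0.72 to 0.76 over the other settings. The replicate numbers are shared by both groups and are not stated to pair samples. Deviations of same-numbered arrays correlated at −0.238 over 19938 genes, and with the replicate number as a block 13 genes were called (1.21% of all genes). With the numbers crossed, a setting chosen after seeing the data, 13 were called (1.04%), 10 of them with both. The causes of these changes in calls were not tested. With 2 arrays a group, no rule on single far samples could be applied.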
